A study of Mus musculus with 2 samples.

Results

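Activated T cells take up amino acids through a small set of carriers at the plasma membrane, and 10 of these carrier genes were followed here in mouse CD4+ T cells with and without Lamtor1. The 10 genes are Slc7a5, Slc3a2, Slc7a1, Slc1a5, Slc1a4, Slc38a1, Slc38a2, Slc7a6, Slc43a1 and Slc6a9. Probes were assigned to genes by RefSeq transcript first, then by gene name or synonym, which gave 31709 gene names on the array. All 10 genes had a probe, 15 probes in all. Slc1a7, an older synonym of Slc1a5, is today the symbol of another gene, and its probe was not counted.

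The 2 RNAs came from Lamtor1-deficient (KO) and wild-type (WT) CD4+ T cells of C57BL/6J mice. Per the labels, CD62L+ naive cells, taken from spleen by magnetic sorting, were cultured for 5 days on bound antibody to CD3, with antibody to CD28, IL-2 at 50 ng/ml and TGFβ at 1 ng/ml, and both genotypes shared these conditions. The extraction text names naive cells, so whether the RNA was taken before or after culture is not settled by the labels. Not given in the sources used here are how Lamtor1 was deleted, in which cells, and how many mice gave each extract. KO and WT RNA were hybridised together on 2 two-colour arrays with the dyes exchanged, KO in Cy5 on one and in Cy3 on the other. Both arrays carry the same 2 extracts and count as 1 replicate, so every ± below is a technical SD over the 2 arrays, and no test or p-value is given. The number of arrays limits the precision.

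The carriers differ in what they move. Slc3a2, the CD98 heavy chain, brings its light chains to the cell surface. One of these light chains is Slc7a5 (LAT1), which exchanges leucine and other large neutral amino acids, and another is Slc7a6 (y+LAT2), which exchanges cationic for neutral amino acids. Slc43a1 (LAT3) carries branched-chain amino acids without a heavy chain, and Slc7a1 (CAT1) carries arginine and lysine. Slc1a5 (ASCT2) and Slc1a4 (ASCT1) are sodium-dependent exchangers of small neutral amino acids, and ASCT2 also takes glutamine. Slc38a1 (SNAT1) and Slc38a2 (SNAT2) bring in glutamine and alanine with sodium, and Slc6a9 (GlyT1) takes up glycine. In T cells such uptake is induced by receptor stimulation, and leucine and arginine feed the activation of mTORC1, the kinase complex that Lamtor1 helps to place at the lysosome.

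Each value below comes from a 60-base probe, of which the first 30 bases are given, 5′ to 3′ as in the scanner files, for the genes on which the results turn. Capitals mark bases shared by the 2 overlapping Slc6a9 probes, and genome positions follow the scanner files (build mm9).
Slc7a5, position 3363 of the transcript, chr8:124405136-124405195, minus strand: gtggttataatgtcttttactattgtatta
Slc7a5, position 533, chr8:124430996-124431055, minus strand: tagtcttcgccacctacttgctcaagccgg
Slc3a2, position 1695, chr19:8782189-8782248, minus strand: gagggcttgctgttacagttcccctttgtg
Slc7a1, position 6148, chr5:149139957-149140016, minus strand: aggcttgttttggtttgcgaaatactttga
Slc6a9, position 3203, chr4:117541842-117541901, plus strand: gcccagtgtGTGCAGAACTAGGGTTTTAAA
Slc6a9, position 3212, chr4:117541851-117541910, plus strand: GTGCAGAACTAGGGTTTTAAAGTCCGTAGG
Slc1a4, position 3434, chr11:20202615-20202674, minus strand: ctgtatttacatatactttatgtatcaagt

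The positions within the transcript are those of the files, and which probes lie in coding sequence and which in untranslated sequence was not analysed here. The probes were not compared with sequences of other genes.

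Of the 10 carriers, 4 were lower in the KO RNA, 0 were higher, 5 were not called and 1 gave no measurement. The 4 lower genes were Slc6a9 (4.66-fold), Slc7a5 (4.26-fold), Slc7a1 (3.1-fold) and Slc3a2 (2.57-fold). A gene was called where its brightest probe differed by 2-fold or more the same way on both arrays, and it was measured where that probe was well above background, by the scanner software's flag, on both arrays in KO or in WT. All 9 measured carriers met this in both RNAs on both arrays, so none was counted through the RNA in which it was high. Among all 14872 measured genes, 6.89% were called lower and 2.46% higher, against 44.4% of the 9 measured carriers called lower. The median log2 ratio of the 9 was −0.51, against −0.02 for all measured genes. With each array centred on its median in place of loess, the same call rule gave 881 lower and 111 higher genes rather than 1024 and 366. The carriers were chosen with earlier results of these arrays known, and these counts describe them only.

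**Figure D1:**
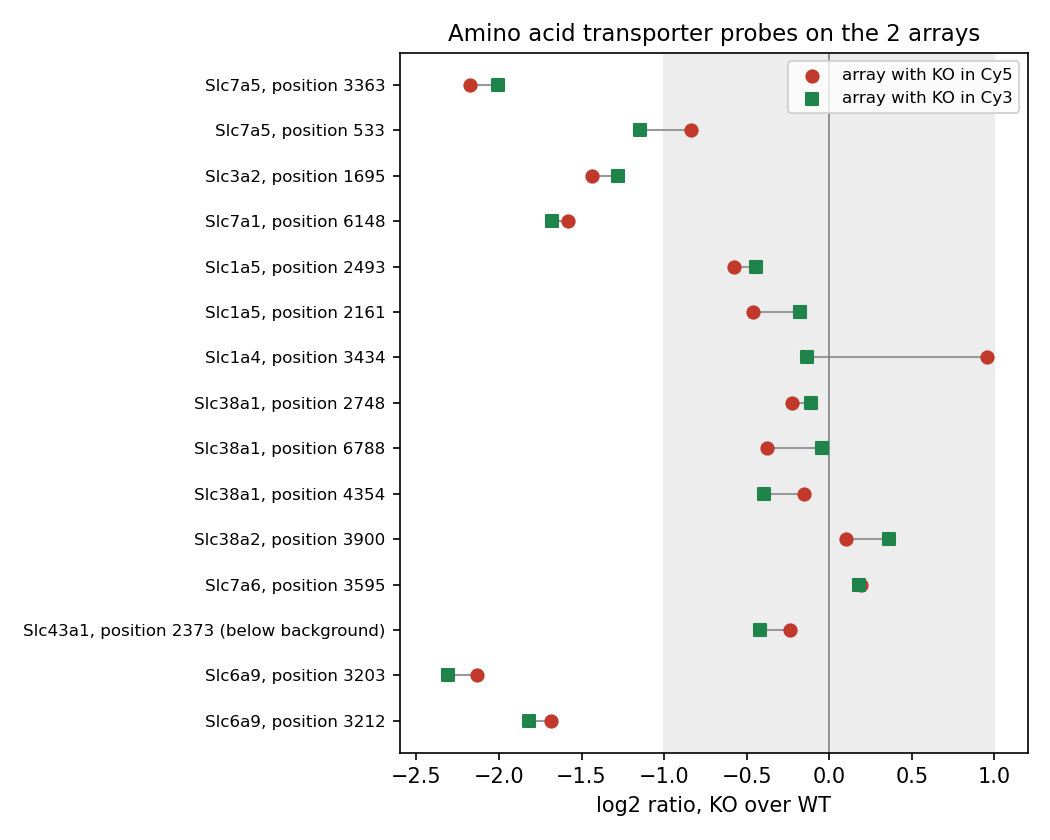
Log2 ratio KO over WT (horizontal axis) of all 15 carrier probes, named by gene and position in the transcript; circles are the array with KO in Cy5, squares the array with KO in Cy3, and the grey band spans 2-fold either way. Both Slc6a9 probes and the brighter Slc7a5, the Slc3a2 and the Slc7a1 probe lie left of the band on both arrays, and the 2 Slc1a4 points lie on opposite sides of 0.

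The arrays themselves behaved alike for nearly all carriers. No spot was saturated, between 43.7% and 51.7% of the non-control spots were well above background per RNA and array, and none of the 15 carrier spots was marked as an outlier. Lamtor1, the deleted gene, stood at a log2 ratio of −1.95 ± 0.03, and its probe was still well above background in KO on both arrays. Of 10 T cell markers (Cd3d, Cd3e, Cd3g, Cd247, Cd2, Cd5, Cd6, Cd4, Lck and Thy1), all were measured in both RNAs, with a summed normalized signal of 93767 to 99469 in KO and 123002 to 123747 in WT. Cd4 (−1.18 ± 0.05) and Cd5 (−1.12 ± 0.12) of these were called lower. The median log2 ratio of the 10 was −0.64, below the −0.51 of the carriers, with 6 below 0 on both arrays and 3 above. Of 8 CD8 T and NK cell markers 6 were measured, and Klrc1 (1.80 ± 0.01), Klrd1 (1.78 ± 0.17) and Klrb1c (at least 2.18-fold, not well above background in WT) were higher. Cd8b1 lay below 0 on both arrays (−0.55 ± 0.01) and Cd8a above (0.67 ± 0.03), neither called. The summed signal of the 6 was 7254 to 7380 in KO and 3402 to 3486 in WT, most of it from Nkg7 (1.04 ± 0.08), which was not called. Klrk1 and Ncr1, 5 of 6 B cell markers (all but Cd79b) and 3 of 8 myeloid markers (among them Cd14 and Adgre1) were not well above background. The 5 myeloid markers measured summed to 8834 to 9937 in KO and 5824 to 6060 in WT, nearly all of it from Itgam (0.70 ± 0.07). None of the 5 was called, Ly6g lay the other way (−0.81 ± 0.18), and Fcgr3 and Lyz2 were well above background in KO only. Cd79b gave 191 to 209 in KO and 121 to 140 in WT. The part of these markers in the ratios of the carriers was not tested. In bulk RNA, fewer cells of a type and less RNA per cell cannot be told apart.

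The CD98 pair of heavy chain and LAT1 light chain was lower in the KO RNA in both of its parts. Slc3a2, the heavy chain, had a mean spot signal of 1862 in KO and 4003 in WT on the array with KO in Cy5, and of 925.5 in KO and 7523 in WT on the array with KO in Cy3. These raw signals also carry the brightness of each dye. Loess takes out any Cy5 to Cy3 difference shared by probes of like intensity, whether it comes from the dyes or from the RNAs. After it the log2 ratios were −1.44 and −1.28, or −1.36 ± 0.11, and the mean was −1.95 under median centring. KO was below WT on each array, and the technical spread was far smaller than the difference. Slc3a2 was the 683rd lowest of the 14872 measured genes.

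The brighter Slc7a5 probe, at position 3363, had a signal of 151.9 in KO against 587.3 in WT with KO in Cy5, and of 103.9 against 1062 with KO in Cy3. Its log2 ratios were −2.18 and −2.00, or −2.09 ± 0.12, the 144th lowest value of all measured genes. The other Slc7a5 probe, at position 533, lies 25860 bases away in the genome and read −0.84 and −1.15, or −0.99 ± 0.22. That probe was dim: its KO signals were 90.9 and 63.8 over a local background of 39.5 and 38.5, and only 1 of the 2 arrays had it well above background in KO. Both probes put KO below WT on both arrays, and they differed in size. The constant of 50 that was added to every signal before taking logs pulls dim probes toward 0. With a constant of 1, the values at positions 3363 and 533 were −2.57 and −1.74, and with the scanner software's own processed signals they were −2.66 and −2.54. The ratio at position 533 thus moved with the background handling far more than that at position 3363.

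Slc7a6, the other CD98 light chain among the 10, did not follow the heavy chain. Its signal was 159.4 in KO and 119.3 in WT with KO in Cy5, and 118.3 and 177.5 with KO in Cy3. After loess its log2 ratios were 0.19 and 0.18, or 0.18 ± 0.01, which is 1.14-fold higher in KO. The probe was dim, and its ratio moved with the processing by more than this technical SD. It was 0.03 under median centring, 0.31 with a constant of 1 and 0.43 with the processed signals. Slc43a1, the leucine carrier that needs no heavy chain, had signals of 55.8 to 56.6 in KO and 70.7 to 78.6 in WT over local backgrounds of 38.0 and 44.0 in WT. It was not well above background in either RNA on either array, and no fold is given for it.

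Slc7a1, the arginine and lysine carrier, was lower in KO by a similar size on both arrays. Its signal was 1753 in KO and 4175 in WT with KO in Cy5, and 734.4 and 7796 with KO in Cy3. The log2 ratios were −1.58 and −1.68, or −1.63 ± 0.07, the 451st lowest of all measured genes. The gene had 1 probe.

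Slc6a9, the glycine carrier, was lower in KO with both of its probes. Its order against Slc7a5 depended on the array and on the processing. Slc6a9 was the lower of the pair in the mean reported here, while Slc7a5 was on the array with KO in Cy5 (−2.18 against −2.13). Slc7a5 was also the lower with the processed signals (−2.66 against −2.35) and with an offset of 1 (−2.57 against −2.33). The Slc6a9 probe at position 3203 gave 592.9 in KO and 2125 in WT with KO in Cy5, and 257.5 and 3935 with KO in Cy3. The log2 ratios were −2.13 and −2.31, or −2.22 ± 0.13, and 0.71% of measured genes were lower. The probe at position 3212 shares 51 of its 60 bases with the first, as the capitals above show, and read −1.69 and −1.82, or −1.75 ± 0.10. Both probes were past 2-fold on both arrays. They differed from each other by 0.47 on the log2 scale, more than the technical SD of either, although they cover nearly the same stretch of the transcript.

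**Figure D2:**
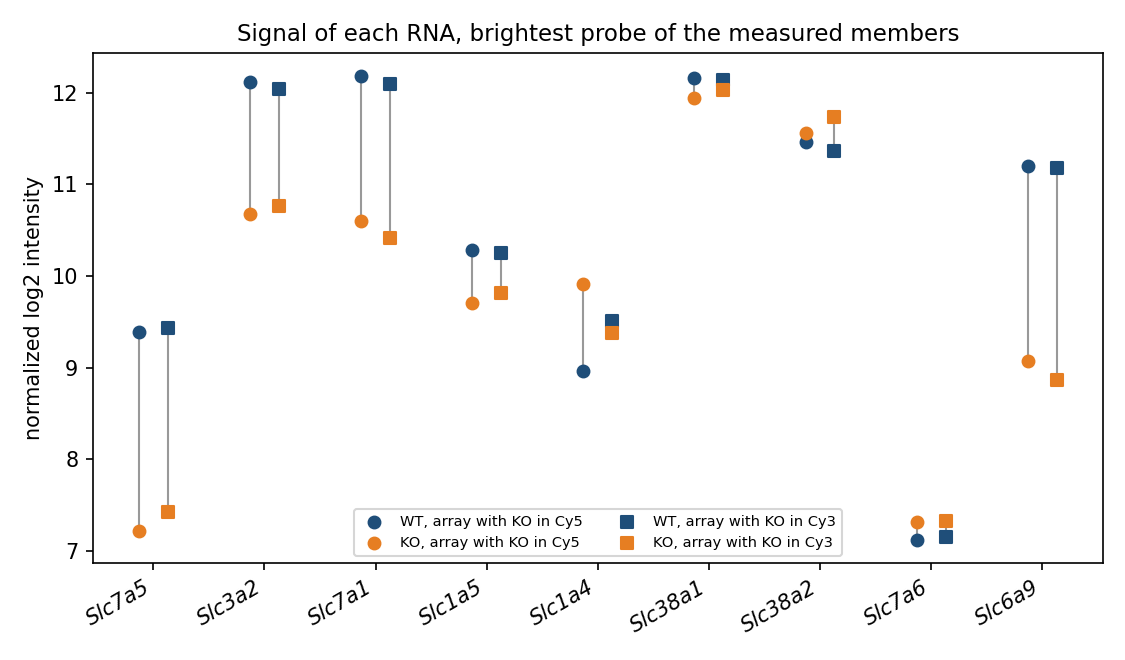
Normalized log2 intensity (vertical axis) of the brightest probe of the 9 measured carriers in KO (orange) and WT (blue) RNA; circles are the array with KO in Cy5, squares the array with KO in Cy3. KO lies below WT on both arrays for 6 genes, and heights cannot be compared between genes, since each probe binds with its own strength.

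Neither of the glutamine and alanine carriers was called. Slc38a1 had 3 probes, and its brightest, at position 2748, gave signals of 4546 in KO and 4124 in WT with KO in Cy5, and 2192 and 8121 with KO in Cy3. After loess it stood at −0.22 and −0.11, or −0.17 ± 0.08. The probes at positions 6788 and 4354 read −0.21 ± 0.24 and −0.27 ± 0.17, the latter well above background in KO on 1 array. All 3 probes lay below 0 on both arrays, by less than 2-fold, and the brightest stood at −0.77 under median centring. Slc38a2 had signals of 3449 in KO and 2532 in WT with KO in Cy5, and 1831 and 4738 with KO in Cy3. Its log2 ratios were 0.10 and 0.36, or 0.23 ± 0.19, and this sign turned to −0.36 under median centring, a setting that put the median of all genes at −0.375.

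Slc1a5, the ASCT2 carrier, was somewhat lower in KO and not called. Its probe at position 2493 gave 924.2 in KO and 1114 in WT with KO in Cy5, and 501.5 and 2065 with KO in Cy3. The log2 ratios were −0.58 and −0.44, or −0.51 ± 0.10, a 1.42-fold difference. A second probe at position 2161 read −0.46 and −0.18, or −0.32 ± 0.20. Both probes lay below 0 on both arrays, and under median centring the brighter one stood at −1.04 without passing 2-fold on both.

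Slc1a4, the related ASCT1 carrier, was the 1 carrier on which the arrays disagreed. Its signal was 1082 in KO and 438.5 in WT with KO in Cy5, and 381.4 in KO and 1208 in WT with KO in Cy3. The RNA labelled with Cy5 was the brighter one each time. The raw signals of Slc38a1, Slc38a2 and Slc7a6 had the same order, and loess brought their arrays together, while for Slc1a4 a difference between the arrays was left. After loess its log2 ratios were 0.95 and −0.13, or 0.41 ± 0.77. The technical SD of the other 8 measured carriers ran from 0.01 to 0.19, that of the median measured gene was 0.11, and only 0.05% of measured genes had one as large as that of Slc1a4. The mean of 0.41 is smaller than its technical SD, and its sign turned to −0.07 under median centring, so no direction is given for Slc1a4. The gene had 1 probe, which was well above background in both RNAs on both arrays.

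**Figure D3:**
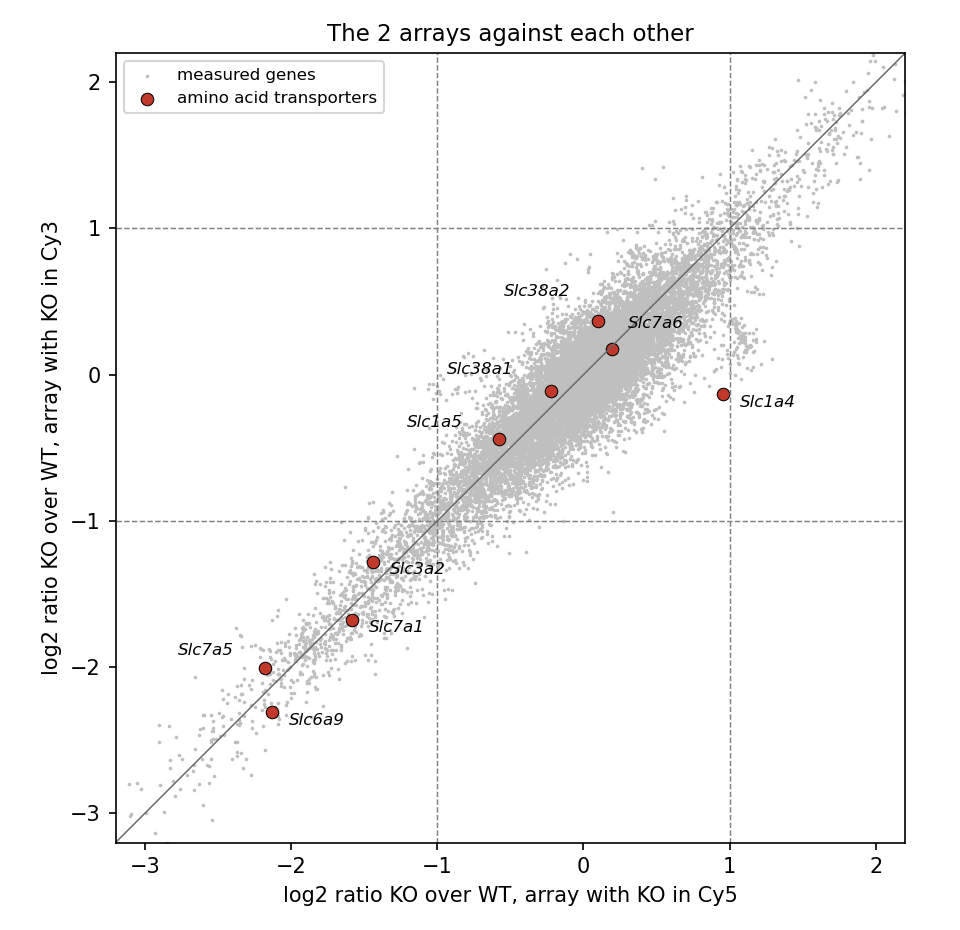
Log2 ratio KO over WT on the array with KO in Cy5 (horizontal axis) against that with KO in Cy3 (vertical axis); grey points are measured genes within the drawn range, red points the 9 measured carriers, dashed lines mark 2-fold and the solid line equal values. Slc6a9, Slc7a5, Slc7a1 and Slc3a2 lie near the line in the lower left, and Slc1a4 lies to the right of it at 0.95 and −0.13.

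Promoter sequences were looked up for the carriers because several of these genes are known targets of Atf4, a factor that rises when amino acids run short and that binds C/EBP-ATF response elements. RefSeq windows of GRCm38.p6, from 250 bases before to 50 bases after the start, were matched by symbol for 7 of the 10 genes (Slc3a2, Slc7a1, Slc1a4, Slc38a2, Slc7a6, Slc43a1 and Slc6a9), 11 windows in all; those of Slc7a5, Slc1a5 and Slc38a1 were not analysed here. The element's core was searched as TGATGNAA on both strands and was present in 3.97% of all 32851 windows. Among the carriers 1 window held it, that of Slc1a4. The match began 4 bases before the start and ran across it. The stretch at chr11:20332700-20332753 (GRCm38.p6, minus strand) is shown here with the match in capitals.
Slc1a4 promoter: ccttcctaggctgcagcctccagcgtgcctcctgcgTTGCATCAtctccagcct

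Slc1a4 is the carrier whose ratio had no settled direction. No window of the lower genes Slc3a2, Slc7a1 and Slc6a9 held these letters, which says nothing of elements outside the window. The letters CACGTG, the E-box bound by Myc and by TFE-family factors, were present in 7.15% of all windows and in the Slc43a1 window only among the carriers' 11. A match is a match of letters and not a measured binding site.

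Other amino acid transporters of the plasma membrane were mostly below detection. Of 32 such genes listed, 31 were found by name, and 26 of these were not well above background, among them the cystine carrier gene Slc7a11, the LAT2 light chain gene Slc7a8 and the glutamine carrier gene Slc38a5. Of the 5 measured, 1 was called lower and 0 higher (median −0.11, from −0.31 to 0.14 over the alternatives). Beside this and the list counts that follow stand the shares of all measured genes, 6.89% called lower and 2.46% higher. The lower gene was Slc7a3, which encodes the cationic amino acid carrier CAT3, at −1.83 and −1.41, or −1.62 ± 0.29. Its probe was dim, and its ratio was −2.28 with an offset of 1 and −2.69 with the processed signals. The taurine carrier gene Slc6a6 (0.39 ± 0.29, and −0.09 under median centring) and Slc43a2 (0.44 ± 0.11), which encodes LAT4, were not called.

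Among amino acid carriers of inner membranes no gene was called lower. Of 11 lysosomal carriers listed 10 were measured, 0 were called lower and 1 higher (median 0.12). That gene was Ctns, which encodes the lysosomal cystine exporter cystinosin, at 1.61 and 1.67, or 1.64 ± 0.05. It averaged 1.23 under median centring and then was not past 2-fold on both arrays. The brightest of the list, the sialic acid exporter gene Slc17a5 (0.68 ± 0.10), Slc15a4 (−0.05 ± 0.18) and Mfsd12 (−0.25 ± 0.14), were not called, nor was Slc38a9, the arginine sensor gene of the Ragulator pathway, at −0.16 ± 0.07 (named here after its value was seen). Of 12 mitochondrial carriers 9 were measured and 0 called either way (median 0.08). Under median centring their median was −0.39, close to the −0.375 of all measured genes in that setting. Its brightest members went both ways, with Sfxn3 at 1.03 ± 0.24, Sfxn1, which carries serine, at −1.02 ± 0.20, and Slc25a38, which carries glycine, at 0.70 ± 0.14.

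Of the enzymes that act first on the imported amino acids, Shmt2 and Got1 were lower in KO with both RNAs above background on both arrays. Of 20 enzymes listed 17 were measured, 5 were called lower and 0 higher (median −0.66). The other 3 lower genes, Gpt2, Bcat1 and Gls2, counted as measured through WT, where they were high. With both RNAs required to be above background, 2 of 14 enzymes were lower (median −0.41), against 927 of all 13190 genes that met this. Bcat1, which transaminates leucine and the other branched-chain amino acids, stood at −1.60 and −1.80, or −1.70 ± 0.14, and was well above background in KO on 1 array. Shmt2, which interconverts serine and glycine in mitochondria, stood at −1.40 ± 0.02. Got1, an aspartate transaminase, stood at −1.67 ± 0.13, and Gls2, a glutaminase, at −1.15 ± 0.07, with KO above background on 1 array. Gpt2, an alanine transaminase, was not well above background in KO and was at least 6.42-fold lower there; the probe's own KO signal set this bound, as it was no lower than the lowest signal counted as well above background. Not called were Mat2a (−0.26 ± 0.12), Ass1 (−0.45 ± 0.03) and Glud1 (−0.67 ± 0.07), the brightest of the list. The arginases Arg1 and Arg2 were not well above background.

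Some carriers of other nutrients that T cells induce on stimulation were lower as well. Of 10 measured, 4 were called lower and 0 higher (median −0.55). These were the lactate carrier gene Slc16a3 (−2.44 ± 0.10), the glucose carrier genes Slc2a1 (−1.80 ± 0.24) and Slc2a3 (−1.70 ± 0.30), and Tfrc, the transferrin receptor (−1.20 ± 0.01). The phosphate carrier gene Slc20a1 (0.01 ± 0.14) and the nucleoside carrier gene Slc29a1 (−0.56 ± 0.10) were not called.

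**Figure D4:**
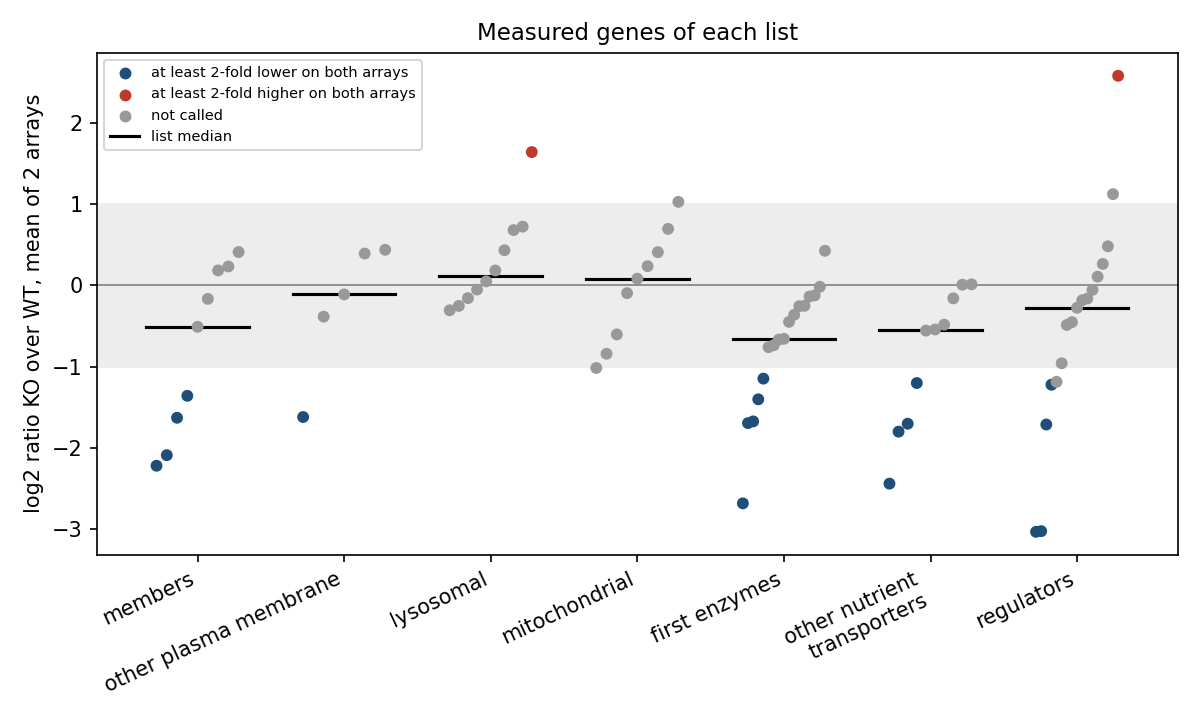
Mean log2 ratio KO over WT of the 2 arrays (vertical axis) for each measured gene of 7 lists; blue points were called lower, red points higher and grey points not called, black bars are list medians and the grey band spans 2-fold. The 10 carriers (members), the first enzymes and the carriers of other nutrients hold 4, 5 and 4 lower genes, of which 2 of the 5 enzymes remain when both RNAs must be above background, and the lysosomal and mitochondrial lists hold 0.

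Of 17 genes listed as regulators of amino acid transporter transcription, all measured, 4 were called lower and 1 higher (median −0.28, from −0.76 to −0.28 over the alternatives). Whether each of them controls these carriers was not tested. The −0.76 came from median centring, which put the median of all measured genes at −0.375. Atf5 (−3.03 ± 0.14) and Trib3 (−3.03 ± 0.25), both targets of Atf4, Cebpb (−1.71 ± 0.06), a partner factor, and Hif1a (−1.22 ± 0.22), the oxygen-regulated factor, were lower. Atf4 itself read −0.90 and −1.47, or −1.19 ± 0.40, and missed the call on the array with KO in Cy5. Eif2ak3, which encodes the kinase PERK upstream of Atf4, was higher at 2.82 and 2.34, or 2.58 ± 0.33, which is 5.98-fold. Myc, which drives transcription of Slc7a5 and Slc1a5 in activated T cells, read −0.37 and 0.00, or −0.18 ± 0.26 (named here after its value was seen), and its dimer partner gene Max 0.26 ± 0.08 (−0.33 under median centring). Mycn, a relative of Myc, read 0.96 and 1.29, or 1.12 ± 0.23, and missed the call on the array with KO in Cy5 (also named after its value was seen). Under 6 of the 11 alternatives the list held 2 higher genes. Transcript levels of these factors were measured, and their protein or activity was not.

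The calls of the measured carriers were the same under all the processing tried, though several of the settings could not have changed them. Slc6a9 ran from −2.75 to −1.99 over 11 alternatives, Slc7a5 from −2.66 to −1.54, Slc7a1 from −2.21 to −1.58 and Slc3a2 from −1.95 to −1.28. Each of the 4 met the call rule under all 11, and none of the other 5 measured carriers met it under any, although the mean of Slc1a5 reached −1.04 under median centring. For the 4, several settings could not change the call. A gene called on both arrays passes on each by itself, and all measured carriers were above background in both RNAs. No carrier spot was an outlier, the series matrix repeated the processed signals, and Slc3a2 and Slc7a1 had 1 probe each.

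**Figure D5:**
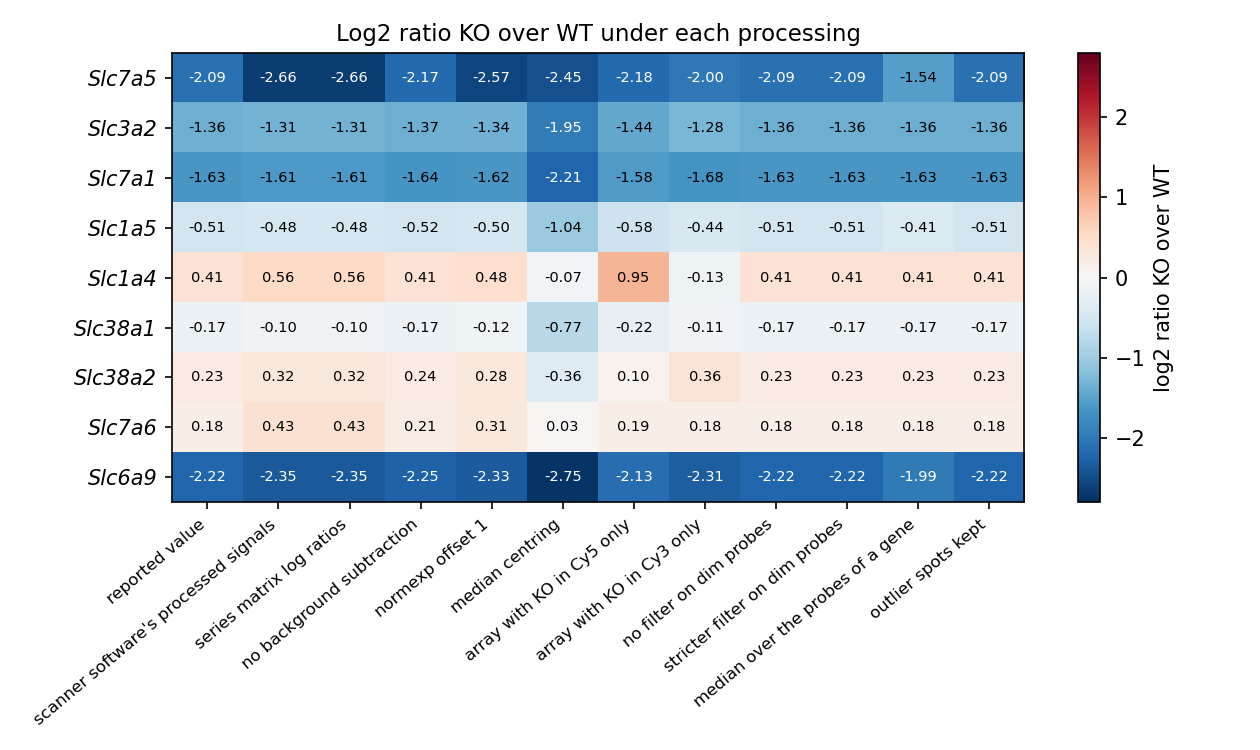
Log2 ratio KO over WT (colour and printed value) of the 9 measured carriers (rows) as reported and under 11 other ways of processing (columns). Slc7a5, Slc3a2, Slc7a1 and Slc6a9 stay below −1 in every column, and Slc1a4 and Slc38a2 change sign under median centring, Slc1a4 also on the array with KO in Cy3.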

How the data were processed

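RNA of KO and WT CD4+ T cells was compared on 2 Agilent two-colour arrays with dyes exchanged. Spots were quantified in Feature Extraction, version 10.7.3.1 per the file headers and 10.5.1.1 per the submitters' processing notes. The deposited scanner files hold mean and local background intensity per spot, and a processed intensity that the software background-subtracted and dye-normalized, per the file headers. The deposited log10 ratios of the series matrix equalled the scanner files' own (largest difference 0). In limma 3.58.1 (R 4.3.3), normexp with an offset of 50 was applied to the mean intensities, then loess to each array with control spots at weight 0; 206 and 214 outlier spots were left out. The labelled dyes gave each log2 ratio its direction, KO over WT, and the 2 arrays were averaged. Names came from RefSeq (GRCm38.p6). A gene's brightest probe stood for it. The steps were tried on simulated data in which as many genes were set higher as lower, unlike on these arrays. That trial does not test loess under such an imbalance. Beside the carriers, genes were named where called or among the 3 brightest of their list. Carriers and lists were chosen with earlier results of these data known. Alternatives are given in the closing section. Figures used Python 3.11.15 and matplotlib 3.10.9.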

Additional observations from a re-analysis of the deposited data

How the results depend on the processing

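No paired analysis was possible because both arrays hold the same pair of extracts. The count of lower carriers (4) and of higher carriers (0) was equal under all 11 alternatives, several of which could not have changed the 4 calls. The median log2 ratio of the measured carriers moved from −0.51 to −1.04 under median centring (−0.66 relative to all measured genes) and to −0.415 when a gene was given the median of its probes. Among all measured genes, 1613 were lower and 867 higher from the scanner software's processed signals, as from the series matrix; 609 were higher with a normexp offset of 1, 111 under median centring and 556 when the array with KO in Cy5 was used by itself. The count of lower first enzymes fell from 5 to 2 when probes had to be well above background in both RNAs, since 14 genes were then left. Under 6 alternatives 2 rather than 1 of the regulators were higher, and the lysosomal and mitochondrial lists gained 1 lower gene under 2 alternatives and 1 alternative; the cause was not tested. Dim probes limit Slc43a1, Slc7a6, the Slc7a5 probe at position 533 and most other plasma membrane carriers.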
